A study of Mus musculus with 6 samples.

Results

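Transcript levels of 10 Bcl2 family genes were examined in Tregs of mice with and without a Treg-specific deletion of Zfp335. The genes were chosen by symbol from general knowledge of the family, with earlier results of these data already known. All 10 had a row among the 13709 gene rows of the RNA-Seq count table. They comprised the survival genes Bcl2, Bcl2l1 and Mcl1, the effector genes Bax and Bak1, and the BH3-only genes Bcl2l11, Bbc3, Pmaip1, Bid and Bad. The study compared C57BL/6 mice of 2 genotypes, with 3 samples each. WT mice carried Foxp3Cre alone, and KO mice carried Foxp3Cre together with Zfp335fl/fl. In both genotypes a YFP-Cre fusion was made from the Foxp3 locus, so Cre and YFP were present in WT and KO Tregs alike. The floxed Zfp335 alleles were meant to be removed only in cells that had expressed Foxp3. Mice were 2 weeks old per the study's methods, and cells were sorted as CD4+YFP+CD25+. The labels named both lymph nodes and spleen as the source of the cells, and the sources used here did not give the number of mice behind a sample or their sex. Since nothing stated that samples came from separate mice, p-values measure only the spread between these samples.

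Proteins of the Bcl2 family decide at the outer mitochondrial membrane whether a cell commits to apoptosis. Survival members hold the effectors Bax and Bak1 in check, BH3-only members are induced or activated by stress and cytokine withdrawal and either block the survival members or trigger the effectors, and active effectors open pores that release cytochrome c to the Apaf1 apoptosome and its caspases. In Tregs, IL-2 signaling sustains Mcl1, and Bcl2l11 (Bim) is a known limit on their lifespan.

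The genes lay on different chromosomes, apart from the shared locations of Bcl2l1 with Bcl2l11 on chromosome 2 and of Bax with Bbc3 on chromosome 7. In GRCm38.p6, the assembly behind mm10, RefSeq placed the survival genes at chr1:106538176-106714290 on the minus strand (Bcl2), chr2:152758732-152833803 on the minus strand (Bcl2l1) and chr3:95656944-95663179 on the plus strand (Mcl1). The effector genes lay at chr7:45461695-45466903 (Bax) and chr17:27019812-27028627 (Bak1), both on the minus strand. Of the BH3-only genes, Bcl2l11 lay at chr2:128126038-128162547, Bbc3 at chr7:16308398-16318334 and Bad at chr19:6941861-6951905 on the plus strand, and Bid at chr6:120893119-120917062 on the minus strand. Bak1, Bcl2l11, Bad and Bcl2l1 each overlapped another protein-coding gene (Ggnbp1, Acoxl, Gpr137 and Cox4i2), and without knowledge of stranded counting their reads could not be fully told apart. Cox4i2 had no row in the table, and Ggnbp1 and Acoxl read 0.451 to 3.53 CPM, which is the count of a gene scaled to the library total, against at least 73.1 CPM for Bak1 and 79.7 for Bcl2l11. Gpr137 read 7.06 to 13.4 CPM beside 13.8 to 17.2 for Bad, so values of Bad are uncertain.

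The start regions of Bcl2, the founding survival gene, and of Bcl2l11, the BH3-only gene that opposes it, are shown as the pair of opposed members whose transcripts were both lower in KO Tregs and whose printed windows hold no annotated exon. Each line gives the 250 bases before the RefSeq start of transcription, 5′ to 3′ on the strand of the gene, for Bcl2l11 at chr2:128125788-128126037 on the plus strand and for Bcl2 at chr1:106714291-106714540 on the minus strand of GRCm38.p6. Capitals mark GTAAACA, the core that forkhead factors such as Foxo proteins recognize, and GGGCGG, the GC box, on either strand.
Bcl2l11: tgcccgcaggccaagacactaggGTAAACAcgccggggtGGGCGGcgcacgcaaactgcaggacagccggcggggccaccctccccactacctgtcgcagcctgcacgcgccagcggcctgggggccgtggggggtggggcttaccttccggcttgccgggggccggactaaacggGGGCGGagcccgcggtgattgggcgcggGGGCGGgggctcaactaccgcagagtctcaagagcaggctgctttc
Bcl2: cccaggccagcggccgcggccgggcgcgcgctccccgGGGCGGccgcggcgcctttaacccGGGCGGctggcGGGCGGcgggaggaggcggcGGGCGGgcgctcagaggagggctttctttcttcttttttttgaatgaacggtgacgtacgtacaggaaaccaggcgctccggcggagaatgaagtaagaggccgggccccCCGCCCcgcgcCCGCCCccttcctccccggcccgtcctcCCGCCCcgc
RefSeq windows were found for 9 of the 10 members (15 windows in all, because some genes had several starts) and not for Pmaip1. GTAAACA stood once in the printed Bcl2l11 window, from base -227 to -221 relative to the start. It also stood in 1 Bbc3 window and in no other window of the members, whereas 3.17% of 32851 mouse windows of this length held it. GGGCGG stood 3 times in the printed Bcl2l11 window, 7 times in the Bcl2 window, 3 times in the Bid window and 0 times in the Bak1 window. Of all windows 32.7% held it. The window of another Bcl2l11 start (chr2:128127325-128127574) held GTAAACA 0 times and GGGCGG 2 times. The STAT motif TTCNNNGAA, present in 7.02% of windows, was in 0 windows of the members. A match is a description of letters and neither a binding site nor a cause.

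Depth and sample quality were as follows. Total counts ranged from 32032631 to 40728419 per sample, and 13594 genes passed the low-count filter, all 10 members among them. Zfp335 itself read 101, 94.3 and 103 CPM in WT and 37.0, 37.9 and 40.2 CPM in KO samples. The change was in the direction the labels give (log2 fold change -1.37, edgeR adjusted p = 2.14e-05). Zfp335 reads thus remained in KO samples, and their source was not tested. WT replicate 3 stood apart from the other WT samples on the second principal component (-58.9 against 22.1 and 34.4). The biological coefficient of variation was 0.263 over the 3 WT samples, 0.126 without WT replicate 3 and 0.070 in KO, so values without that replicate are given beside each member. All 8 Treg markers were detected, with Foxp3 at 642 to 1190 CPM in WT and 459.7 to 472 CPM in KO. Summed markers of myeloid cells were 18.1 to 29.2 CPM in WT and 50.5 to 57.5 in KO. Those of B cells were 18.7 to 20.7 and 12.8 to 13.7. Those of NK cells were 3.59 to 5.83 and 14.9 to 16.2, and those of dendritic cells 1.98 to 3.94 and 8.81 to 11.5. Most of the NK rise was in Eomes (means 2.31 in WT and 11.3 in KO), with Klrb1c also called higher (1.65 and 3.48). Most of the dendritic cell rise was in Itgax (0.436 and 7.03). Ncr1, Flt3, Siglech and Zbtb46 were not called. Sums for CD8 T cells, plasma cells and erythroid cells overlapped between the genotypes. Whether the samples differed in NK or dendritic cell content was not tested. Of the neutrophil markers, S100a8 and S100a9 were at 0 in WT and summed to 3.57 to 5.42 CPM in KO, and the other 6 had no row. Of 12 proliferation genes 12 were called higher in KO, with sums of 773 to 1495 CPM in WT and 4110 to 4284 in KO. The part of these differences in the results below was not tested.

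In KO Tregs the effector gene Bak1 and the BH3-only gene Pmaip1 rose to 210.0% and 211% of the WT level, the BH3-only genes Bcl2l11 and Bid fell to between 54.7% and 56.5%, and the survival genes Bcl2 and Bcl2l1 were lower by less than 1.5-fold. Calls required an adjusted p under 0.1, a p under 0.05 and a change of more than 1.5-fold. By these cutoffs 4 of the 10 members were called, 2 higher and 2 lower, against 24.4% of all genes tested (11.9% higher and 12.5% lower). With the adjusted p under 0.1 and no fold cutoff, 6 of 10 members passed against 47.0% of all genes. The WT and KO samples did not overlap for 7 of 10 members, against 53.8% of all genes. The median log2 fold change was -0.22 over the members and -0.035 over all genes, and the median absolute change was 0.38 and 0.36. In bulk RNA, fewer cells expressing a gene and less RNA per cell cannot be told apart.

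**Figure D1:**
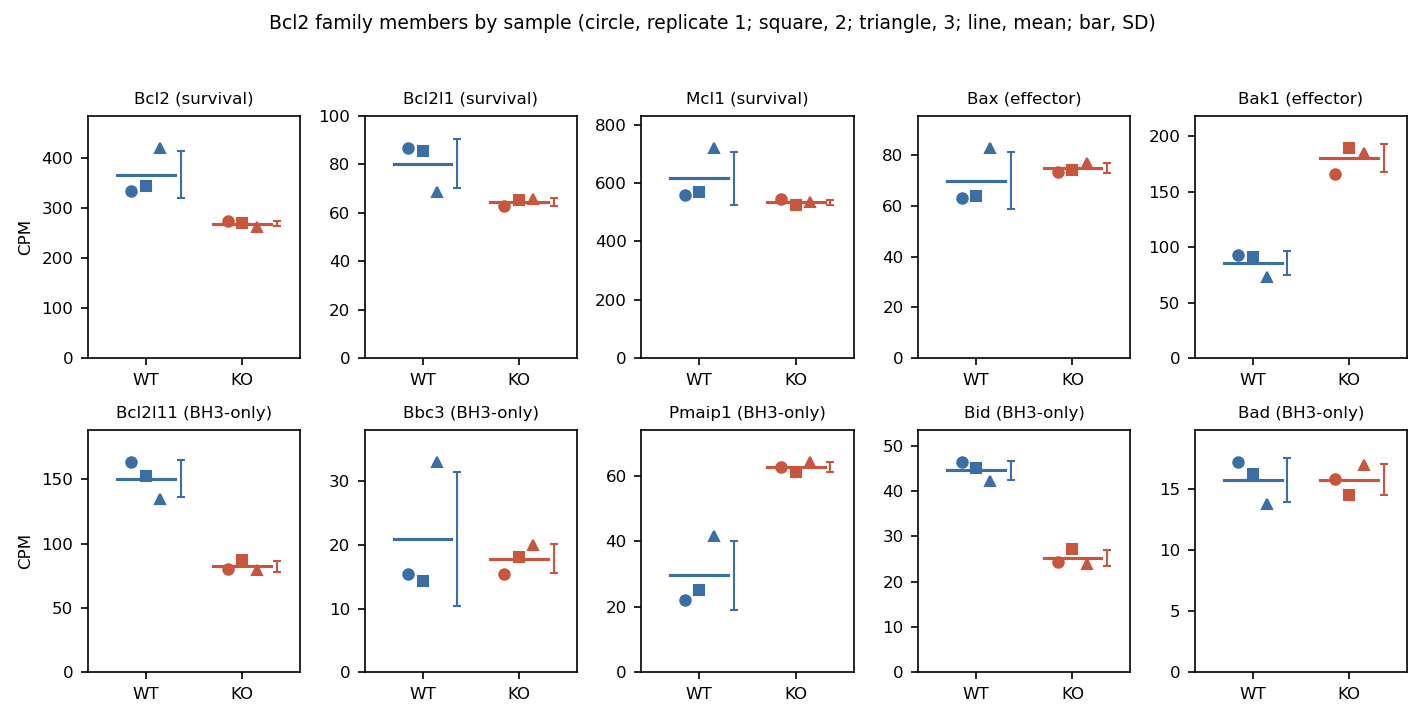
Expression of the 10 members in CPM (y axis, from 0) in each WT and KO sample, with a line at the mean and a bar for the SD of 3 samples. Bak1 and Pmaip1 stood higher in all 3 KO samples, Bcl2l11 and Bid lower in all 3, and WT replicate 3 (triangle) was far above the other WT samples for Bbc3 (33.0 against 15.3 and 14.3 CPM).

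Among the survival genes, Bcl2 was lower in KO Tregs, though by less than 1.5-fold. Bcl2, which keeps resting lymphocytes alive, read 334, 343 and 419.8 CPM in WT and 272, 270.0 and 262 CPM in KO samples. Every KO sample lay below every WT sample, and the KO mean was 268 ± 5.51 CPM against 366 ± 47.2 in WT (SD, n = 3 each), or 73.3% of WT. Its log2 fold change was -0.45 (SE 0.10, 95% interval -0.67 to -0.22, edgeR adjusted p = 0.00829), and -0.34 without WT replicate 3 (edgeR adjusted p = 5.25e-05).

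Bcl2l1, which encodes Bcl-xL, a survival protein typical of activated T cells, read 87.0, 85.4 and 68.6 CPM in WT and 62.7, 65.5 and 65.6 CPM in KO samples. The groups did not overlap, but WT replicate 3 stood closer to the KO samples than to the other WT samples. Its log2 fold change was -0.31 (SE 0.10, 95% interval -0.55 to -0.083, edgeR adjusted p = 0.0394), below the fold cutoff, and it was -0.42 without WT replicate 3 (edgeR adjusted p = 6.67e-05). With any other single sample left out, the edgeR adjusted p rose to between 0.102 and 0.130, so Bcl2l1 then no longer stood among the 6 members that passed without a fold cutoff.

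Mcl1, a short-lived survival protein on which Tregs are known to depend, read 560.4, 569.9 and 722 CPM in WT and 544, 524 and 534 CPM in KO samples. The groups did not overlap, yet the gap between the lowest WT and the highest KO sample was small beside the gap from WT replicate 3 to the other WT samples. Mcl1 did not pass the test (log2 fold change -0.21, 95% interval -0.45 to 0.032, edgeR adjusted p = 0.152), and without WT replicate 3 its log2 fold change was -0.086. The interval over all 6 samples allows a fall larger than that of Bcl2l1 as well as no change.

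The effector genes differed from each other. Bak1, which forms pores in the outer mitochondrial membrane, read 93.3, 90.9 and 73.1 CPM in WT and 166, 189.8 and 185 CPM in KO samples. The lowest KO sample was well above the highest WT sample, and the mean rose from 85.8 ± 11.0 to 180.1 ± 12.7 CPM (SD, n = 3 each), which is 210.0% of WT. The log2 fold change was 1.07 (SE 0.11, 95% interval 0.82 to 1.32, edgeR adjusted p = 0.00031), and 0.96 without WT replicate 3.

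Bax, the other pore-forming effector, read 63.1, 63.8 and 83.0 CPM in WT and 73.5, 74.3 and 77.0 CPM in KO samples. WT replicate 3 stood above all KO samples and the other WT samples below them, so the groups overlapped. Over all 6 samples the log2 fold change was 0.10 (SE 0.11, 95% interval -0.16 to 0.36, edgeR adjusted p = 0.526). Without WT replicate 3 it was 0.24 with an edgeR adjusted p of 0.00719, still below the fold cutoff, so for Bax the outcome rested on that replicate.

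**Figure D2:**
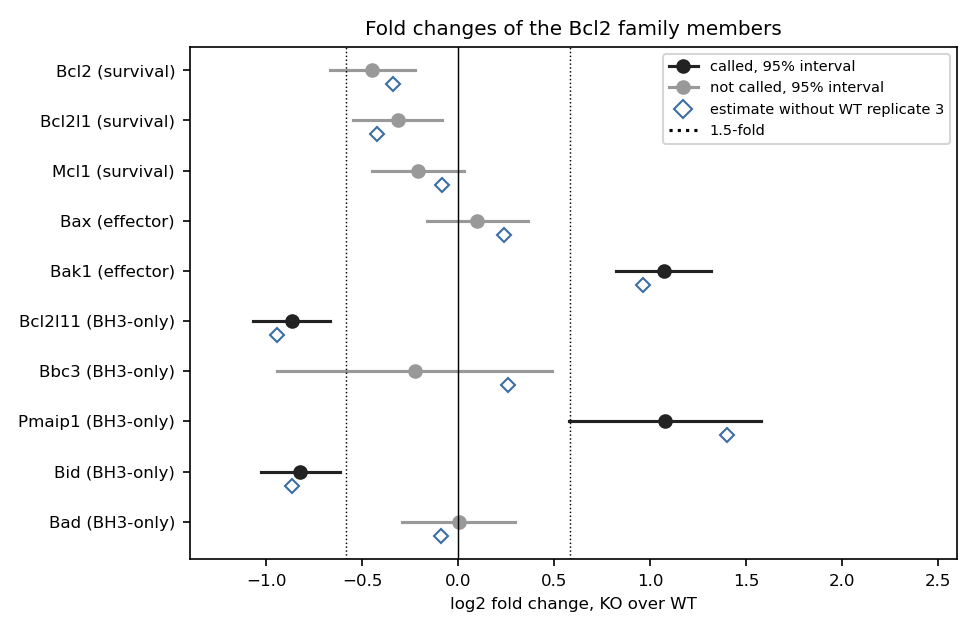
The log2 fold change of KO over WT for each member (x axis) with its 95% interval, dark where called, beside the estimate without WT replicate 3 (open diamond) and dotted lines at 1.5-fold. The intervals of Bak1 (0.82 to 1.32), Bcl2l11 (-1.07 to -0.67) and Bid (-1.03 to -0.62) lie past the 1.5-fold lines, and Bbc3 has the widest interval (-0.95 to 0.49) and an estimate that changes sign.

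The BH3-only genes moved in both directions. Bcl2l11, whose product Bim binds all survival members and drives the death of cytokine-starved lymphocytes, read 164, 153 and 135 CPM in WT and 80.01, 87.3 and 79.7 CPM in KO samples. All KO samples lay far below all WT samples, with means of 82.4 ± 4.32 and 150.4 ± 14.4 CPM (SD, n = 3 each). The log2 fold change was -0.87 (SE 0.09, 95% interval -1.07 to -0.67, edgeR adjusted p = 0.000314), and -0.95 without WT replicate 3.

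Bid, which is cut by caspase-8 and links death receptors to mitochondria, read 46.4, 45.1 and 42.3 CPM in WT and 24.4, 27.3 and 23.9 CPM in KO samples. It had the tightest WT samples of the family, with a coefficient of variation of 4.76%, and the groups were far apart. Bid had a log2 fold change of -0.82 (SE 0.09, 95% interval -1.03 to -0.62, edgeR adjusted p = 0.000421), and -0.86 without WT replicate 3.

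Pmaip1 (chr18:66458604-66465558, plus strand), which encodes Noxa, a p53 target whose protein opposes Mcl1, read 22.2, 25.3 and 41.7 CPM in WT and 62.8, 61.2 and 64.3 CPM in KO samples. The KO samples were close to each other and above all WT samples, of which WT replicate 3 was 1.76 times the mean of the others. Pmaip1 rose with a log2 fold change of 1.08 (SE 0.22, 95% interval 0.58 to 1.58, edgeR adjusted p = 0.00607). Without WT replicate 3 it was 1.40 (edgeR adjusted p = 2.89e-09). Tested against a fold of 1.5 rather than of 1, Pmaip1 had a glmTreat adjusted p of 0.0703. That did not pass the adjusted p under 0.05 used for glmTreat, though it was under 0.1.

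Bbc3, which encodes Puma, another p53 target, read 15.3, 14.3 and 33.0 CPM in WT and 15.4, 18.1 and 19.997 CPM in KO samples. The KO samples lay between WT replicate 3 and the other WT samples, and WT replicate 3 was 2.22 times the mean of those. No difference was detectable (log2 fold change -0.23, 95% interval -0.95 to 0.49, edgeR adjusted p = 0.602), and the sign turned to 0.26 without WT replicate 3. Pmaip1 and Bbc3 both had their highest WT value in replicate 3, and the KO samples lay above that value for Pmaip1 and below it for Bbc3.

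Bad, whose protein is kept inactive by Akt phosphorylation, read 17.2, 16.3 and 13.8 CPM in WT and 15.8, 14.5 and 17.02 CPM in KO samples. The samples of both genotypes were interleaved, with means of 15.8 ± 1.78 and 15.8 ± 1.25 CPM (SD, n = 3 each). A log2 fold change of 0.002 was estimated (95% interval -0.29 to 0.30, edgeR adjusted p = 0.992), and -0.091 without WT replicate 3, so neither a fall nor a rise within that interval could be told from no change.

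WT replicate 3 did not shift the family in 1 direction. Relative to the mean of WT replicates 1 and 2 it was higher for Bbc3 (2.22 times), Pmaip1 (1.76), Bax (1.31), Mcl1 (1.28) and Bcl2 (1.24). It was lower for Bid (0.92), Bcl2l11 (0.85), Bad (0.82), Bcl2l1 (0.80) and Bak1 (0.79). For Bcl2l1, Bcl2l11, Bid and Pmaip1 this was the direction in which KO differed from WT, whereas for Bcl2, Mcl1 and Bak1 it was the opposite one. Among KO samples the coefficient of variation ran from 1.84% for Mcl1 to 13.1% for Bbc3, and between WT replicates 1 and 2 from 0.755% for Bax to 9.25% for Pmaip1. The 4 calls were the same without WT replicate 3.

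Levels of different genes were compared per length, as CPM per kilobase of the exons of the basic coding transcripts. In WT the order of the mean levels was Mcl1 (181), Bax (80.7), Bcl2 (39.9), Bak1 (35.9), Bcl2l11 (21.8), Bcl2l1 (20.7), Bid (20.4), Bbc3 (11.5), Pmaip1 (10.9) and Bad (6.59). The sample ranges of Bcl2 and Bak1, of Bcl2l11 and Bcl2l1, of Bcl2l1 and Bid, and of Bbc3 and Pmaip1 overlapped in WT, so these neighbors were not ordered. Mcl1 was thus the most abundant transcript of the family and lay at percentile 98.1 of 13307 genes ranked per length, while Bad lay at percentile 45.8.

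In KO the order was Mcl1 (156), Bax (86.4), Bak1 (75.5), Bcl2 (29.3), Pmaip1 (23.0), Bcl2l1 (16.6), Bcl2l11 (11.9), Bid (11.5), Bbc3 (9.82) and Bad (6.60). Only the neighbors Bcl2l11 and Bid and the neighbors Bid and Bbc3 overlapped there. Bak1 moved from rank 4 to 3 and from percentile 85.1 to 93.7, above Bcl2, with which it overlapped in WT. Pmaip1 moved from rank 9 to 5 and from percentile 57.3 to 75.3, while Bcl2l11 went from rank 5 to 7 and from percentile 74.6 to 59.8. Bid went from percentile 72.9 to 58.9. Ranks here follow the means alone. Pmaip1 overlapped Bbc3 in WT, and Bcl2l11 overlapped Bcl2l1 in WT and Bid in KO, so the exact ranks of these genes were not settled. With the longest coding transcript as the length, a choice made after seeing the data, Bak1 came before Bax in KO and Bad before Bbc3. Bcl2l1 then came before Bcl2l11 in WT and before Pmaip1 in KO, so that Pmaip1 went from rank 9 to 6 and Bcl2l11 from rank 6 to 7.

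**Figure D3:**
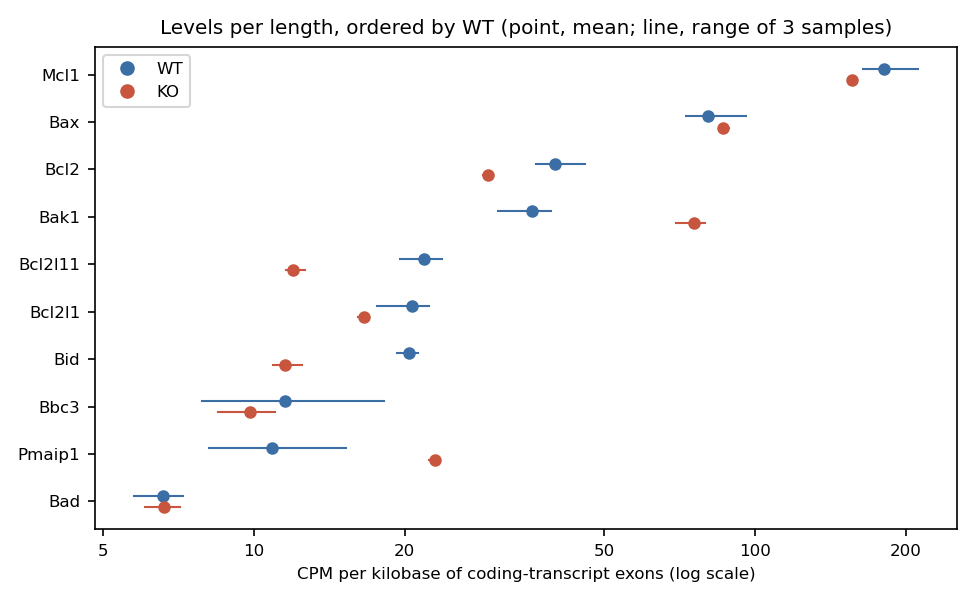
Level per length of each member in CPM per kilobase (x axis, log scale), ordered by the WT mean, with points for group means and lines for the range of 3 samples in WT and KO. Bak1 (35.9 to 75.5) and Pmaip1 (10.9 to 23.0) shift to the right in KO, and Bcl2l11 (21.8 to 11.9) and Bid (20.4 to 11.5) to the left.

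Summed by role, per length, the survival genes went from 241 ± 29.0 CPM per kilobase in WT to 202 ± 2.69 in KO, or 83.8% of WT, and Mcl1 made up most of that sum. The effector genes went from 117 ± 8.45 to 162 ± 6.69, or 138.9% of WT, with most of the gain in Bak1. The BH3-only genes went from 71.2 ± 6.08 to 62.8 ± 1.76, or 88.3% of WT, with Bcl2l11 and Bid lower and Pmaip1 higher (SD, n = 3 each). WT replicate 3 had the highest WT value of each sum. It was at 275 against 223 and 226 in the other WT samples for the survival genes, and at 78.1 against 68.7 and 66.7 for the BH3-only genes. The KO samples lay at 205, 199.7 and 202 for the survival genes and at 60.8, 63.6 and 64.1 for the BH3-only genes. These sums were not tested.

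Ratios between members were described in each sample as log2 ratios of CPM per kilobase, without a test. The survival to effector ratio was 0.99, 1.02 and 1.12 in WT and 0.41, 0.27 and 0.28 in KO samples. All KO samples were lower, with a difference of -0.72 between the means. The survival to BH3-only ratio was 1.70, 1.76 and 1.81 in WT and 1.75, 1.65 and 1.65 in KO samples, which overlapped.

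The ratio of Mcl1 to Bcl2l11 was 2.79, 2.91 and 3.43 in WT and 3.78, 3.60 and 3.76 in KO samples. All KO samples were higher, WT replicate 3 was nearest to them, and the means differed by 0.67 (0.86 without that replicate). The ratio of Bcl2 to Bcl2l11 was 0.62, 0.76 and 1.23 in WT and 1.36, 1.22 and 1.31 in KO samples. Here WT replicate 3 reached the KO range, and the difference of 0.43 between the means became 0.61 without it.

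Among survival genes, the ratio of Bcl2 to Mcl1 was -2.17, -2.15 and -2.20 in WT and -2.42, -2.38 and -2.45 in KO samples. It had the smallest spread of the 4 ratios between single genes, WT replicate 3 included, and the groups did not overlap. The ratio of Bcl2 to Bcl2l1 was 0.70, 0.77 and 1.38 in WT and 0.88, 0.81 and 0.76 in KO samples, and its difference of -0.13 turned to 0.081 without WT replicate 3.

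**Figure D4:**
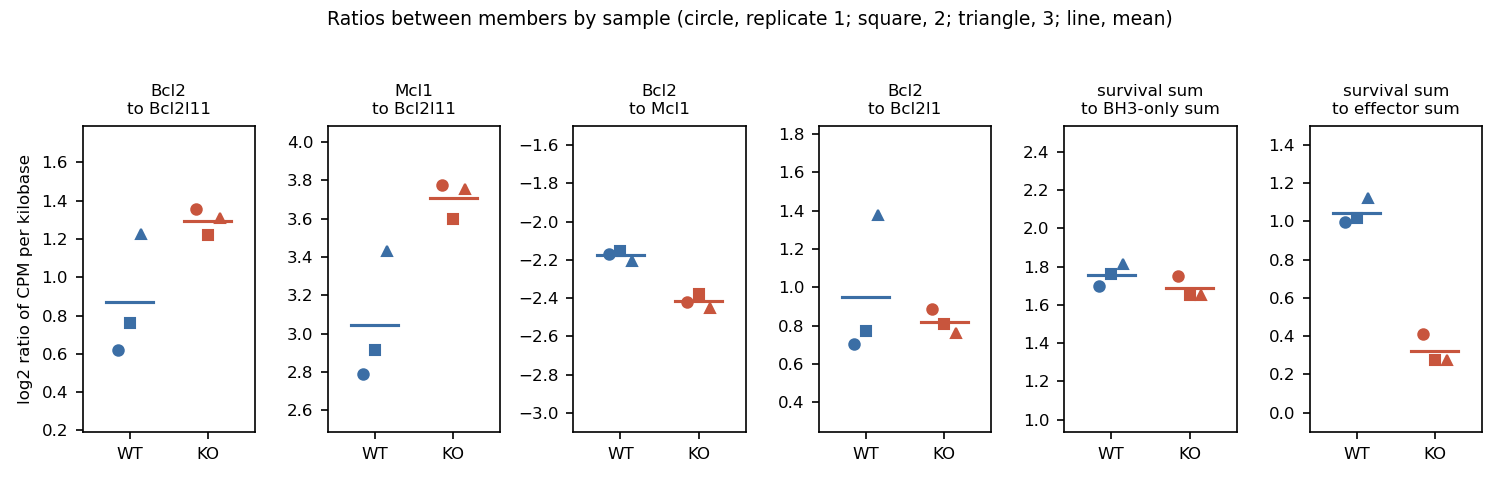
Log2 ratios of CPM per kilobase between members or role sums in each sample (y axes of equal height, differently placed), with a line at the mean of 3 samples. The survival to effector ratio lies at 0.99 to 1.12 in WT and 0.27 to 0.41 in KO, whereas WT replicate 3 (triangle) reaches the KO range for Bcl2 to Bcl2l11.

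Of 17 further genes of the Bcl2 family, 15 had a row and 4 were called (26.7%, near the 24.4% of all genes), 2 higher and 2 lower, with a median log2 fold change of -0.20. The BH3-only gene Bmf, which senses loss of attachment and cytokines, read 10.8, 7.73 and 12.1 CPM in WT and 2.30, 1.44 and 2.24 CPM in KO samples (log2 fold change -2.36, edgeR adjusted p = 0.000498). All KO samples were below all WT samples, as for Bcl2l11 and Bid. The other calls were chosen for mention after their values were seen, and all were at low levels. They were the BH3-only gene Bik (1.59 on the log2 scale), Bcl2l15 (-2.15) and Bcl2a1a (2.68). Bcl2a1a is near-identical to Bcl2a1b and Bcl2a1d, which were not called, so reads may be split among them and its value is uncertain.

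Of 16 caspase and apoptosome genes, 7 were called (43.8%, against 24.4% of all genes), 5 higher and 2 lower, with a median of 0.10. The list was not limited to steps after the effectors, as it also held Casp8, Casp1 and Casp4. The count of calls was 5 with GC and length offsets. It was 2 when tested against a fold of 1.5 (glmTreat, adjusted p under 0.05). Apaf1, the scaffold of the apoptosome, read 48.8, 48.0 and 48.6 CPM in WT and 113, 121 and 111 CPM in KO samples (log2 fold change 1.25, edgeR adjusted p = 2.14e-05). WT replicate 3 did not stand apart for this gene, and the groups were far apart. Casp1 (2.28) and Casp4 (0.77), the caspases of inflammatory cell death, were also higher, though the call of Casp4 was lost without WT replicate 2 (0.58) and without KO replicate 1 (0.72). Cytochrome c (Cycs, 0.69) rose and the mitochondrial proteins Htra2 (-0.64) and Endog (-0.77) fell; these 3 were chosen after their values were seen.

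Of 9 inhibitor of apoptosis genes, 2 were called (22.2%, near the 24.4% of all genes), with a median of 0.037. Birc5, which encodes survivin, a mitotic protein as well as an apoptosis inhibitor, read 28.5, 30.9 and 16.4 CPM in WT and 97.9, 104 and 102 CPM in KO samples (log2 fold change 2.004, edgeR adjusted p = 0.000392). It rose beside the 12 proliferation genes. Naip5, a sensor of bacterial flagellin, was lower (-1.06), with reads that may be shared with near-identical Naip genes. Xiap, Birc2 and Birc3, the inhibitors that act on caspases or receptor complexes, were not called.

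Of 15 death receptor pathway genes, 4 were called (26.7%, again near 24.4%), 1 higher and 3 lower, with a median of -0.28. Fasl, the ligand of Fas, read 4.32, 3.62 and 2.61 CPM in WT and 12.7, 13.5 and 13.4 CPM in KO samples (log2 fold change 1.90, edgeR adjusted p = 0.000376), while Fas itself was not called (0.065). Tnfrsf1b, the TNF receptor that expands Tregs, read 420.1, 406 and 529 CPM in WT and 165, 172 and 179 CPM in KO samples (-1.39). Tnfrsf25 (-0.73) and the ligand Tnfsf10 (TRAIL, -0.78) were lower as well. Casp8, which cuts Bid and was counted among the caspase genes above, was not called (-0.16).

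Of 33 genes known to regulate the family, 6 were called, 4 higher and 2 lower, which is 18.2% against 24.4% of all genes. Foxo3 and Foxo1, forkhead factors known to induce Bcl2l11 and kept out of the nucleus by Akt, were lower. Foxo1 read 299, 309 and 329 CPM in WT and 186, 194 and 203 CPM in KO samples (log2 fold change -0.68, edgeR adjusted p = 0.000349), and the log2 fold change of Foxo3 was -0.70. Akt1, a kinase that phosphorylates both Foxo proteins and Bad, read 194, 191 and 167 CPM in WT and 307, 305 and 301 CPM in KO samples (0.73). E2f1, a cell cycle factor, was higher (1.12).

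Il2rb, a chain of the IL-2 receptor (0.59), and Trp73, a p53 relative at low levels (3.45), were also called and were chosen after their values were seen. Trp53 itself was below the fold cutoff (-0.36, edgeR adjusted p = 0.007), beside higher Pmaip1 and no detectable change of Bbc3. Il7r, the receptor through which IL-7 sustains Bcl2, read 118, 123 and 563 CPM in WT and 194, 210.3 and 201 CPM in KO samples. WT replicate 3 was far above all others and the groups overlapped, so no difference was called, and with WT replicate 3 left out 10 of the regulators were called rather than 6.

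**Figure D5:**
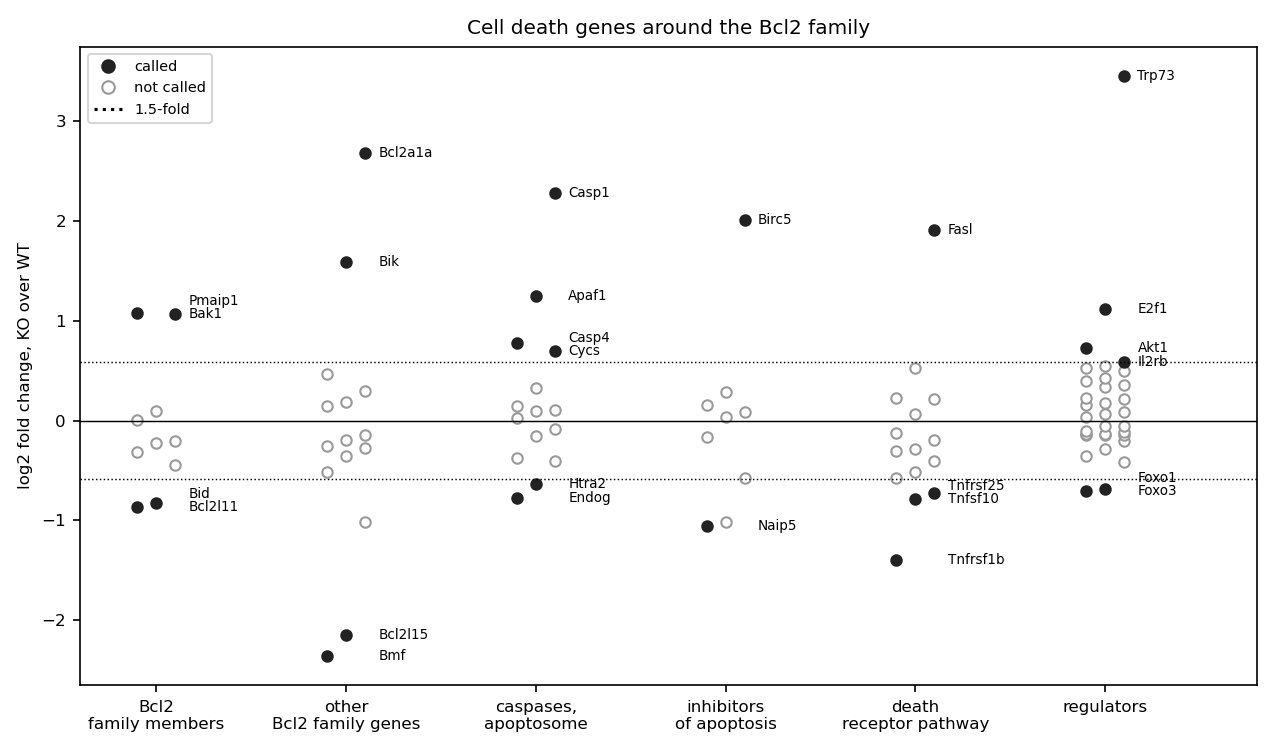
The log2 fold change of KO over WT (y axis) for the tested genes of the 10 members and of the 5 wider lists that are reported, filled where called, with dotted lines at 1.5-fold and sideways offsets without meaning. Calls stand on both sides of 0 in each list, from Bmf at -2.36 to Trp73 at 3.45.

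The genes whose log2 CPM followed a member most closely over the 6 samples are given as a description, since the samples share genotype and WT replicate 3. For Bcl2 they were Slc14a1, Tcp11l2 and Kdm5d, each with Pearson's r of 0.998, and 47 genes exceeded 0.99. Like Bcl2 these were highest in WT replicate 3 and lowest in KO. Kdm5d is Y-linked and read 49.7, 52.0 and 80.4 CPM in WT and 32.7, 32.9 and 32.3 CPM in KO samples. The Y-linked genes Uty (log2 fold change -1.12) and Eif2s3y (-0.82) were also called lower, Ddx3y was at -0.74 and not called, and all were highest in WT replicate 3. These 3 were chosen after their values were seen, the sex of the mice was not given, and the part of this difference in the results was not tested. For Bcl2l11 they were Pitpnm2, Hivep3 and Smim10l2a, each with r of 0.999, and 89 genes exceeded 0.99. Hivep3, for example, read 183, 165 and 111 CPM in WT and 33.8, 41.9 and 35.7 CPM in KO samples, with WT replicate 3 nearest to KO, as for Bcl2l11.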

How the data were processed

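RNA-Seq of sorted Tregs from 3 WT and 3 KO samples was analyzed. The methods of the study name SOAPnuke for read filtering, HISAT2 for alignment to mm10 with a single alignment kept, and StringTie for quantification; the submitters' processing notes also name DESeq2. The authors deposited whole-number counts per gene without normalization. How whole numbers were obtained, strand use and annotation are not given in the sources used here. Every gene summed to at least 60 counts over the samples, and no mitochondrially encoded genes were present.

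Differential expression was tested with edgeR 4.0.16 in R 4.3.3: filterByExpr at a minimum count of 10, TMM scaling, and the quasi-likelihood test over all 6 samples without covariates. P-values are two-sided and Benjamini-Hochberg adjusted over the 13594 genes tested, never over a list. Calls used the study's cutoffs (fold 1.5, p 0.05, adjusted p 0.1). CPM are counts relative to TMM-scaled totals. DESeq2 1.42.0 and other settings were alternatives. The procedure was tested on simulated data with 200 changed genes. There the edgeR calls recovered 67% of 2-fold and 85% of 4-fold changes, and 12.1% of the calls were unchanged genes. For DESeq2 calls that share was 24.8%. Far fewer genes changed there than the 3318 called in the data, and none by less than 2-fold, so these shares need not hold for the calls reported. Lengths came from GENCODE M21.

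Members and lists were chosen with earlier results of these data known. Genes named were the members, Zfp335, up to 4 called genes per wider list with the largest change at a mean of at least 5 CPM, and the 3 genes most correlated with Bcl2 and with Bcl2l11; others are marked as chosen after their values were seen. A gene of the caspase list is counted but not reported here.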

Additional observations from a re-analysis of the deposited data

How the results depend on the processing

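The 4 calls among the members came out under DESeq2, RLE scaling, library totals alone, no low-count filter, a minimum of 10 counts in every sample, GC and length offsets, and the omission of any single sample. With adjusted p under 0.05 and no fold cutoff, 5244 genes passed (2610 higher and 2634 lower), as did 4 lower members, 7 death receptor genes and 16 regulators. With glmTreat against 1.5-fold, passing required an adjusted p under 0.05 rather than 0.1. There 1402 genes passed (800 higher and 602 lower), with 1 higher member, 2 caspase and apoptosome genes and 1 regulator. Of the named genes, Pmaip1, Casp4, Tnfrsf25, E2f1, Akt1, Foxo3 and Foxo1 did not pass glmTreat at that cutoff. Of these, Pmaip1 (glmTreat adjusted p = 0.0703) and E2f1 (glmTreat adjusted p = 0.0587) were under 0.1. By the usual cutoffs, 5 caspase and apoptosome genes were called with GC and length offsets. The value of Bbc3 turned to 0.019 with GC and length offsets, and with single samples left out it ranged from -0.44 to 0.26. That of Bad turned to -0.040 with library totals alone, and with single samples left out it ranged from -0.091 to 0.072, below 0 without WT replicate 3 or KO replicate 3. For ratios in CPM without length, survival to BH3-only turned to 0.070 and survival to effector moved to -0.999.

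With single samples left out, calls over all genes ranged from 2867 to 3667, and called regulators from 5 to 10. The ratio difference of Bcl2 to Bcl2l1 ranged from -0.26 to 0.081. Where not stated otherwise, the cause was not tested. With the replicate number as a block, 3190 genes were called, 3100 of them shared with the fit without it, and 4 members. Same-numbered samples did not deviate together (correlations of -0.012 to 0.040), and the number was not taken as a pairing. Whether same-numbered samples shared anything else was not tested. The median log2 fold change over all genes moved to at most -0.074 (library totals alone).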
